A study of Homo sapiens with 4 samples.

Results

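The Y RNA genes are a small family of RNA polymerase III (Pol III) genes on chromosome 7, named in human RNY1, RNY3, RNY4 and RNY5. The 4 functional genes were picked by symbol through their Ensembl identifiers, and the many pseudogenes and features named only Y_RNA were left out. Of the 4, RNY1, RNY3 and RNY4 had a row in the count tables, which listed 7062 small RNA features, and RNY5 was not analysed here. The other 775 Y RNA features of the tables, called copies here, serve only to show how the counts of the genes were made up.

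Counts came from small RNA sequencing of HEK293T cells, a human embryonic kidney line, in 2 groups of 2 libraries. The labels name the line both HEK293 and HEK293T, and HEK293T is used here. Both groups were transfected with 1.5 µg of plasmid for an α-amanitin-resistant RPB1, the catalytic subunit of RNA polymerase II, with a C-terminal domain (CTD) of 52 heptad repeats, and both were then kept for 72 h in 2.5 µg/ml α-amanitin, which removes the endogenous enzyme. The repeats were wild type in 52X WT, and in 52X T4A the threonine at position 4 of the heptad was alanine. Expression from a plasmid in a single cell line limits both groups as a model of the endogenous CTD, and there were no libraries without α-amanitin. The series calls the libraries biological replicates, without saying whether they came from separate transfections. The comparison asks whether Y RNA levels differed between cells with a T4A and a wild-type CTD.

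Y RNAs are short noncoding RNAs that fold back on themselves, so that the 5′ and 3′ ends form a long stem. The stem is the binding site of Ro60, a ring-shaped protein of RNA quality control, and the run of U at the 3′ end of a Pol III transcript is bound by La. Y RNAs are also known as factors for the start of DNA replication in vertebrate cells, and stems cut from them are common fragments in small RNA libraries, above all fragments of the Y4 RNA. The sequencing reads were 50 bp long, shorter than any of the RNAs, and the counts per feature hold no length of the sequenced RNA. From these counts a fragment and a whole Y RNA could not be told apart. Neither could a lower level in every cell and a smaller part of the cells with a high level.

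The genes lay within 23934 bp of each other in hg38. RNY4 (ENSG00000252316.1, 96 bp) was at chr7:148963315-148963410 on the plus strand. RNY1 (ENSG00000201098.1, 113 bp) was at chr7:148987136-148987248 on the minus strand, and RNY3 (ENSG00000202354.1, 102 bp) lay between them. These positions equal those of RefSeq on GRCh38.p14. GENCODE v44lift37, which is on GRCh37, placed no other gene over any of the 3, so each gene was a single-exon noncoding gene of its own.

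The sequences of RNY4 and RNY1 are shown because the counts at copies of RNY4 went with their first bases. They are the GENCODE v44lift37 transcripts of the same Ensembl identifiers, written 5′ to 3′ as DNA, and capitals mark the 11 leading and 4 trailing bases that the pair shared.
RNY1: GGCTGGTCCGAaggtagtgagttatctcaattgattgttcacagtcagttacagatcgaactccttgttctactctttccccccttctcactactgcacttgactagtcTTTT
RNY4: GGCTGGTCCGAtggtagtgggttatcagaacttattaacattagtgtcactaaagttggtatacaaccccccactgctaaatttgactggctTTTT

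RNY4 was 63.7% identical to RNY1 over the aligned length. In a minimum free energy fold computed from these letters, the 5′ end of each RNA paired with its 3′ end. The first base paired with base 109 in RNY1, just before the closing run of T, and with base 92 in RNY4, the first T of that run. Of the first 30 bases, 20 in RNY4 and 17 in RNY1 paired within the last 40 bases. The fold is a computed one and was not measured in these libraries.

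RNY4 held nearly all counts at the 3 Y RNA genes with a row. Its counts were 550586 and 659912 in 52X T4A replicates 1 and 2, and 808581 and 593993 in 52X WT replicates 1 and 2. It ranked 4 of the 1480 features tested by mean count. RNY1 had 5614 and 7402 counts in 52X T4A and 9155 and 6850 in 52X WT, and ranked 155. RNY3 had 923 and 1825 counts in 52X T4A and 1109 and 931 in 52X WT, and ranked 309. Raw counts also depend on library depth, which was greatest in 52X T4A replicate 2. Levels below are therefore counts per 1000000 (CPM) scaled by TMM factors.

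Per base of gene length, the order of levels was RNY4, then RNY1, then RNY3 in each of the 4 libraries. The RNY4 level was 362 and 218 CPM per base in 52X T4A and 577 and 329 in 52X WT. The RNY1 level was 3.14 and 2.07 CPM per base in 52X T4A and 5.55 and 3.22 in 52X WT. The RNY3 level was 0.572 and 0.567 CPM per base in 52X T4A and 0.745 and 0.485 in 52X WT. Neighbours in this order did not overlap. The step from RNY4 to RNY1 was far larger than the spread of either gene over the libraries, while the step from RNY1 to RNY3, 3.66- to 7.45-fold within a library, was nearer to that spread. The order describes reads in a small RNA library and not the amounts of the whole RNAs.

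**Figure D1:**
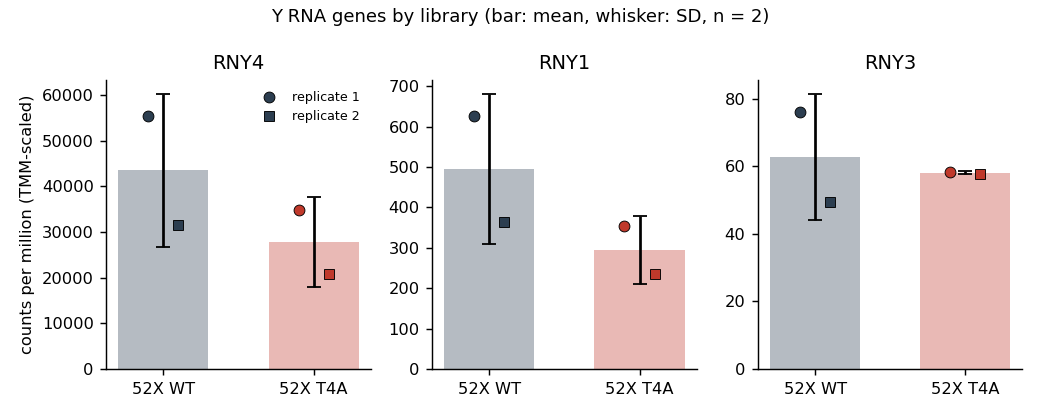
TMM-scaled CPM of RNY4, RNY1 and RNY3 in each library, with its own axis from 0 for each gene. Bars are group means and whiskers the SD of 2 libraries, and replicate 1 lies above replicate 2 in both groups for RNY4 and RNY1, with RNY3 at 58.3 and 57.8 CPM in 52X T4A.

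No Y RNA gene passed the test between groups. RNY4, the main source of Y RNA fragments in small RNA libraries, was at 34786 and 20901 CPM in 52X T4A and at 55411 and 31553 CPM in 52X WT. The groups overlapped, because 52X T4A replicate 1 was above 52X WT replicate 2. The means were 27844 ± 9819 and 43482 ± 16870 CPM (SD, n = 2), 1.56-fold higher in 52X WT by the fit. On the log2 scale 52X T4A over 52X WT came to -0.64 (standard error 0.31), with an adjusted p of 0.467 in edgeR's quasi-likelihood test. Within 52X WT, replicate 1 was 1.76-fold above replicate 2, and within 52X T4A 1.66-fold, so the gap between replicates was larger than the gap between groups.

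RNY1, whose RNA is bound by Ro60 and La and is known to bind nucleolin through its loop, was at 355 and 234 CPM in 52X T4A and at 627 and 364 CPM in 52X WT. Both 52X T4A libraries were below both 52X WT libraries, by a narrow margin between 52X T4A replicate 1 and 52X WT replicate 2. The means were 295 ± 85.0 and 496 ± 186 CPM (SD, n = 2). Its log2 fold change of -0.75 had a standard error of 0.32, and in edgeR's test the unadjusted p was 0.0415 and the adjusted p 0.460. The replicates differed 1.72-fold within 52X WT, slightly more than the 1.68-fold between groups, and 1.51-fold within 52X T4A, slightly less.

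RNY3, which shares with RNY1 the ability to bind nucleolin, was at 58.3 and 57.8 CPM in 52X T4A and at 76.0 and 49.5 CPM in 52X WT. The 52X T4A libraries lay inside the range of the 52X WT libraries. The means were 58.1 ± 0.364 and 62.7 ± 18.8 CPM (SD, n = 2). The fitted log2 value of -0.11 (standard error 0.31) had an adjusted p of 0.934 in edgeR's test. It turned above 0 with upper quartile factors and with library size alone, so no direction is given for RNY3.

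Against all features, 0 of 3 genes called stood beside 2 of 1480 called at an adjusted p below 0.05 and a fold above 1.5, or 0.135% (152 features had an unadjusted p below 0.05). Groups did not overlap and were lower in 52X T4A for 1 of 3 genes, RNY1, and for 314 of 1480 features, or 21.2%. The median log2 fold change of all tested features was -0.05, and 798 of them (53.9%) were below 0. With upper quartile factors and with library size alone this median rose to 0.13 and 0.14.

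The call for RNY4 depended on the fit and was made in 3 of 16 alternatives, of which the 2 that change the filter or the libraries are given here. Without the filter on low counts its log2 fold change was -0.62 with an adjusted p of 0.00152 in edgeR (0.763% called). Leaving out 52X T4A replicate 1, the higher 52X T4A library, gave -1.07 and an adjusted p of 0.000132 (0.369% called). Leaving out 52X WT replicate 2, the lower 52X WT library, gave RNY1 a log2 fold change of -1.09 and an adjusted p of 0.00661, but 13.9% of all features were then called. Leaving out 52X WT replicate 1 reduced the log2 fold changes to -0.29 for RNY4 and -0.41 for RNY1, and leaving out 52X T4A replicate 2 reduced them to -0.31 and -0.47, with adjusted p from 0.681 to 0.904 in edgeR. The direction for RNY4 and RNY1 was below 0 in all 16 alternatives, while the size rested on which of the higher or lower libraries was kept.

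**Figure D2:**
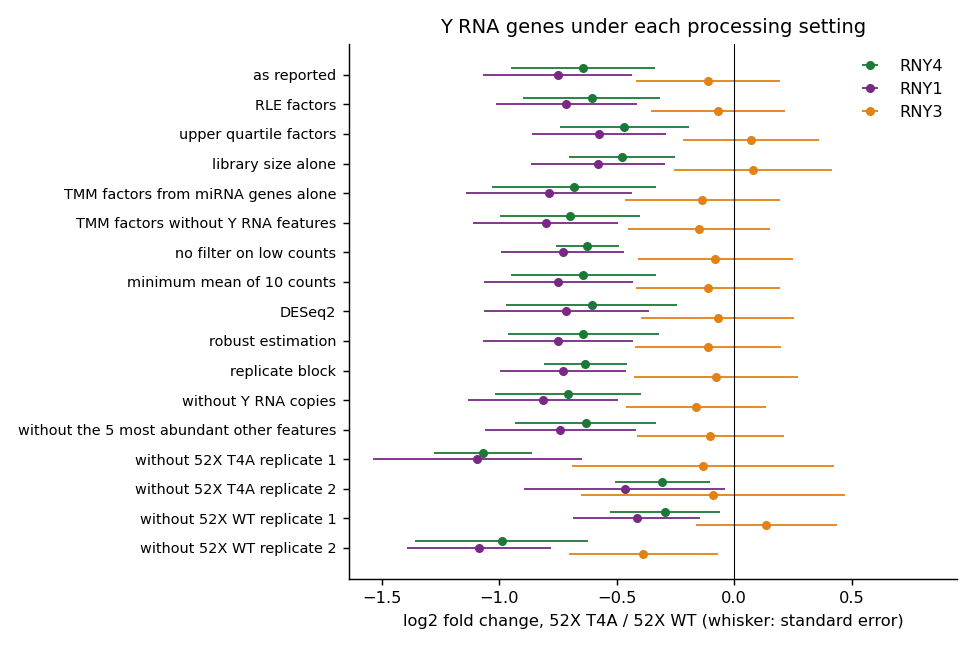
Log2 fold change (52X T4A over 52X WT) of RNY4, RNY1 and RNY3 under each setting, with its standard error as a whisker. RNY4 and RNY1 lie below 0 in every row, nearest to 0 without 52X WT replicate 1 or 52X T4A replicate 2, and RNY3 lies on both sides of 0.

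As a share of all counts of a library, which needs no scaling factor, the 3 genes together took 3.44% and 2.44% in 52X T4A and 5.06% and 3.14% in 52X WT. The groups overlapped here too, because 52X T4A replicate 1 was above 52X WT replicate 2. Mean shares were 2.94 ± 0.706% for 52X T4A against 4.10 ± 1.35% for 52X WT (SD, n = 2), a difference of -1.15 percentage points with p = 0.667 in an exact two-sided permutation test. With 2 libraries against 2, this test cannot give a p below 0.333.

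Of the counts at the 3 genes, nearly all were at RNY4 in every library, while the small shares of RNY1 and RNY3 varied, that of RNY3 the most. RNY4 was 98.8% and 98.6% of the counts at the 3 genes in 52X T4A and 98.7% and 98.7% in 52X WT (exact permutation p = 1, two-sided). RNY1 was 1.01% and 1.11% in 52X T4A and 1.12% and 1.14% in 52X WT, with both 52X T4A libraries below both 52X WT libraries (exact permutation p = 0.333). RNY3 was 0.166% and 0.273% in 52X T4A and 0.135% and 0.155% in 52X WT, with both 52X T4A libraries above both 52X WT libraries (exact permutation p = 0.333). Both p-values are the smallest that the design allows.

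Ratios between the genes showed the same split between RNY4 and RNY1 on one side and RNY3 on the other. Per base, the RNY4 to RNY1 ratio was 115 and 105 in 52X T4A and 104 and 102 in 52X WT, while RNY4 itself ran from 20901 to 55411 CPM and RNY1 from 234 to 627 CPM. The RNY4 to RNY3 ratio was 634 and 384 in 52X T4A and 775 and 678 in 52X WT, without overlap. The RNY1 to RNY3 ratio was 5.49 and 3.66 in 52X T4A and 7.45 and 6.64 in 52X WT, also without overlap. All 3 ratios separated the groups, but they are not independent, since any 2 of them give the other. The RNY4 to RNY1 ratio separated them narrowly, at 104.9 in 52X T4A replicate 2 against 104.0 in 52X WT replicate 1. The exact permutation p of 0.333 for each is the smallest that 2 libraries against 2 can give, so the test could not have passed 0.05.

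The counts at a Y RNA gene may not be those of its locus alone. A few copies of RNY4 had counts close to those of the gene in all libraries, and their starts are shown with those of 3 copies that had far fewer. RNY4P10 (chr6:33199601-33199696, plus strand), ENSG00000201778.1 (chr3:157153548-157153640, plus strand) and RNY4P7 (chr2:127798903-127798998, minus strand) were the 3 copies with the highest counts. RNY4P20 (chr6:151298841-151298933, minus strand), RNY4P27 (chr13:95336106-95336201, minus strand) and RNY4P6 (chr11:117015897-117015992, plus strand) were chosen after their values were seen. The first 40 bases follow, from the same source as above, and capitals mark bases that differ from RNY4 at the same position, without gaps.
RNY4: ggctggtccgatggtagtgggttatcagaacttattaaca
RNY4P10: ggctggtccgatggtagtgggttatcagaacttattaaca
ENSG00000201778.1: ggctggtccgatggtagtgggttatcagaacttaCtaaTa
RNY4P7: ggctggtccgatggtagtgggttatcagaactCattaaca
RNY4P20: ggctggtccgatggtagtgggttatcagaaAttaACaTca
RNY4P27: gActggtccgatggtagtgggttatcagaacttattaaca
RNY4P6: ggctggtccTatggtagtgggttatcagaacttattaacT

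RNY4P10, identical to RNY4 over the first 42 bases and 91.7% over the whole, had 550107 and 658321 counts in 52X T4A and 807098 and 593200 in 52X WT, which is 99.8% to 99.9% of the RNY4 counts. ENSG00000201778.1, identical over 34 bases, had 99.5% to 99.7% of them. RNY4P7, identical over 32 bases, had 94.7% to 96.8%. Counts were thus near those of RNY4 in the 3 copies whose first 32 or more bases were the same, although over their whole length they were only 87.5% to 92.7% identical to it. RNY4P20, identical over 30 bases, had only 8.95% to 9.30% of the RNY4 counts.

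Copies with a single different base near the 5′ end were also far below RNY4. RNY4P27, which differs from RNY4 at 1 of its first 30 bases, had 9.12% to 9.37% of the RNY4 counts. RNY4P6 was the copy in this set closest to RNY4 over its whole length, at 95.8%, and had 8.24% to 8.44%. Across the 9 copies of RNY4 with 1 different base in the first 30, shares ran from 0.0058% to 9.37%, and across the 15 with 2 the highest was 0.274%. Reads were not examined here, so whether a copy and RNY4 held the same reads was not tested, and the counts of these copies were not used as a separate measurement of Y RNA.

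**Figure D3:**
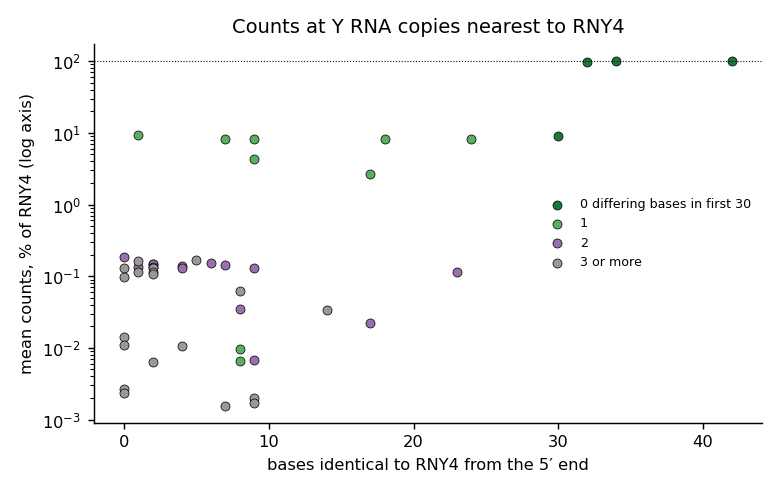
Mean counts over the 4 libraries at copies nearest in sequence to RNY4, as a percentage of RNY4 on a log axis, against the number of bases identical to RNY4 from the 5′ end. Each point is a copy that passed the filter on low counts, and colour gives the number of differing bases in the first 30. The dotted line is RNY4 itself, and the points near it are the 3 copies with 32, 34 and 42 identical bases.

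RNY1 had no copy with the same first 30 bases, and its highest copy, ENSG00000201031.1 on chromosome 3, which was chosen here after its values were seen, had 22.7% to 26.0% of the RNY1 counts. That copy shares only the first 2 bases with RNY1 and differs from it at 18 of the first 30, compared without gaps. By class, tested copies of RNY1 with 1 different base in the first 30 had a median mean count of 1316.5. The median was 27.75 with 2 different bases and 131.25 with 3 or more. Counts were thus highest in the class with the closest start, although the highest single copy was not in it. The counts of RNY3 were close to those of other Y RNA features, which were also chosen after their values were seen. ENSG00000200291.1 on chromosome X had 89.6% to 102% of the RNY3 counts, ENSG00000200090.1 on chromosome 11 had 89.4% to 99.6% and ENSG00000199410.1 on chromosome X had 57.3% to 66.0%. Of the 3 genes, only RNY1 had no copy with more than 26.0% of its counts.

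How a read with several best loci was counted is not given in the sources used here. Features of identical sequence show both possible outcomes. The 16 5S rRNA genes of one sequence differed from each other by no more than counting noise, with a chi-square of 0.891 per degree of freedom, and so did 7 U1 features, with 0.682. The pair MIR512-1 and MIR512-2 never differed by more than 1 count, and 3 features of hsa-mir-3180-3 were equal in every library. Whether RNY4 holds all reads of this start or 1 part of them was not tested.

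Fold changes of the copies were read by the same measure of their 5′ start. The 4 copies with the first 30 bases of RNY4 had log2 fold changes from -0.69 to -0.62, around the -0.64 of RNY4, and the 9 copies with 1 different base had a median of -0.65, all below 0. In the 14 tested copies with 2 different bases, at no more than 0.274% of the RNY4 counts, the median was -0.05, with 9 below 0 and 5 above. The 19 tested copies with 3 or more had a median of -0.29, with 11 below 0 and 8 above. Of the 13 copies with 0 or 1 different base, 12 lay between -0.69 and -0.61 and ENSG00000200526.1, a low copy, was at -0.32. Copies with more different bases were on both sides of 0, and some of them were also near -0.64, such as ENSG00000201279.1 at -0.65.

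Copies nearest to RNY1 were mostly below 0 at any distance. The 14 with 1 different base had a median log2 fold change of -0.60, the 19 tested with 2 a median of -0.77, and the 53 tested with 3 or more a median of -0.79, with 85 of these 86 below 0. Of the 223 copies tested, 155 were below 0, the median was -0.32, and none was called at a background of 0.135%. Copies of near-identical sequence are not replicates, so these counts carry no test.

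**Figure D4:**
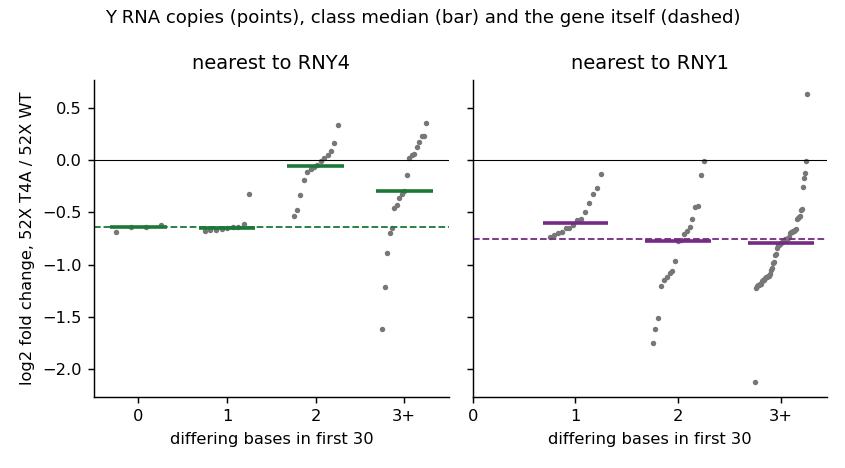
Log2 fold change (52X T4A over 52X WT) of each tested copy nearest to RNY4 or to RNY1, in a panel each, and in columns by the number of differing bases in the first 30. Solid bars are medians of a column and dashed lines the value of the gene itself, and copies of RNY4 with 0 or 1 differing base lie between -0.69 and -0.61 apart from 1 at -0.32.

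Other Pol III genes, listed by promoter type, were not called in either direction. Y RNA genes have an external promoter like that of the 7SK and U6 genes, upstream of the start. Of 9 listed genes with such a promoter, 6 were tested, with 2 above 0, 4 below and a median log2 fold change of -0.04. Their counts were low, with a mean of 187 for RN7SK. The others were U6 genes with means from 15.75 to 21, near the minimum count of 10 of the filter. RNY4 and RNY1 had means of 653268 and 7255. Whether the U6 genes share reads was not tested. RN7SK, whose RNA holds the elongation factor P-TEFb inactive, had -0.05 with a standard error of 0.32 and an adjusted p of 0.981 in edgeR. RNU6-9, a gene of the U6 spliceosomal RNA, had -0.14 with a standard error of 0.47 and an adjusted p of 0.956 in edgeR. RMRP and RPPH1 were not analysed here. The values of RNY4 and RNY1, at -0.64 and -0.75, were below those of both genes, but none of the 4 passed the test and the differences between them were not tested.

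Of 8 listed genes with an internal or mixed promoter, such as those of the vault RNAs, 6 were tested, all below 0, with a median of -0.23. VTRNA2-1, a Pol III RNA known as an inhibitor of the kinase PKR, was at 1983 and 1588 CPM in 52X T4A and 1951 and 1912 CPM in 52X WT, with a log2 fold change of -0.11 and an adjusted p of 0.885 in edgeR. VTRNA1-2, an RNA of the vault particle, was at 312 and 302 CPM in 52X T4A and 415 and 497 CPM in 52X WT, with a log2 fold change of -0.57 and an adjusted p of 0.427. All 17 5S rRNA genes were above 0, from 0.28 to 0.33, with a lowest adjusted p of 0.552, but 16 of them have 1 sequence. RNA5S10 was at 0.31 with an adjusted p of 0.573 in edgeR, and RNA5S15 at 0.28 with 0.590.

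Among 638 candidates not named as Y RNAs, those with the pattern most like that of each gene were found. The measure was the root mean square difference in centred log2 CPM over the 4 libraries. For RNY4 they were ENSG00000265961.1 on chromosome 1 (a difference of 0.0366), ENSG00000274091.1 on chromosome 17 (0.0706), both without a gene name here, and the small nucleolar RNA gene SNORD15A (0.101). For RNY1 they were ENSG00000274091.1 (0.0478), ENSG00000265961.1 (0.0505) and SNORD61 (0.0873). For RNY3 they were the U1 features RNVU1-18 (0.0480) and RNU1-3 (0.0537), which have the same sequence, and the small nucleolar RNA gene SNORD26 (0.0523). On the same measure RNY1 and RNY4 were 0.0688 apart, and RNY3 was 0.390 from RNY1 and 0.383 from RNY4. With 4 libraries, such likeness is a description only, and whether the features without a gene name hold Y RNA reads was not tested.

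The libraries held 16180790 and 27370127 counts in 52X T4A and 16195105 and 19159242 in 52X WT. All Y RNA features together took 15.8% and 11.3% of the counts in 52X T4A and 23.0% and 14.4% in 52X WT, and miRNA genes took 63.5% to 75.3%. The Y RNA sum includes copies with counts near those of RNY4, and whether these hold the same reads was not tested. With the copies left out of the total, the genes with a row took 3.93% and 2.68% in 52X T4A and 6.17% and 3.54% in 52X WT. The library with the highest Y RNA share, 52X WT replicate 1, had the lowest miRNA share. HEK293T cells have no small RNA that defines them alone, so markers of other lineages were read instead. A list of 7 muscle miRNA genes summed to 96.1 and 96.2 unscaled CPM in 52X T4A and 28.2 to 34.2 in 52X WT. Nearly all of this sum was MIR1-1 and MIR1-2, whose values were close to each other in every library. Whether MIR1-1 and MIR1-2 share reads was not tested. The highest of the other muscle genes, MIR499A, reached 1.97 CPM in 52X T4A replicate 2, and MIR208A was at 0. A list of 6 blood miRNA genes, nearly all of it MIR486-1, summed to 31.3 to 49.0 in 52X T4A and 49.1 to 55.4 in 52X WT, with MIR451A, MIR144 and MIR223 each below 0.5 CPM. Liver (0.292 to 0.927), neuron (4.26 to 10.9) and endothelium (94.0 to 135) markers overlapped between groups. The part of any of these, and of the miRNA share, in the Y RNA values was not tested.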

How the data were processed

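Per the labels, total RNA of 2 libraries of each group was made into single-end small RNA libraries of 50 bp reads. The authors deposited raw read counts per feature, with no normalization. The submitters' processing notes name cutadapt 4.6, Bowtie2 2.3.5.1, featureCounts 1.5.0 and hg38. The treatment of reads with several loci is not given in the sources used here. Of 7062 features, 5579 took a name from GENCODE v44lift37 by Ensembl identifier and 908 from RefSeq by identical position, and 575 had none.

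Counts were tested with edgeR 4.0.16 (quasi-likelihood F test, TMM factors from 0.901 to 1.15, filterByExpr with a minimum count of 10) in R 4.3.3, on the whole table of 1480 features that passed. Adjusted p-values are Benjamini-Hochberg values over these features, and a call needs an adjusted p below 0.05 and a fold above 1.5. All 3 genes passed the filter. The fit was tested on simulated counts first. The biological coefficient of variation common to all tested features was 26.0%, and counting error at the 3 genes was small beside it. The RNY3 values in 52X T4A, 58.3 and 57.8 CPM, were much closer to each other than that. Shares and ratios were compared by exact two-sided permutation. Copies were aligned to the genes, of which the sequence of 1 is not reported here, with edlib 1.3.9.post1, and folds were computed with ViennaRNA 2.7.2. Alternatives were DESeq2 1.42.0, other scaling factors and filters, a replicate block, fewer features and leaving out each library.

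Named genes were the Y RNA genes, copies with counts within 2% of a gene or among the 3 highest, up to 2 of the most abundant genes of each Pol III list, and the 3 features most alike in pattern (mean count 100 or more). The genes and lists were chosen with earlier results of these data known.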

Additional observations from a re-analysis of the deposited data

How the results depend on the processing

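The number of features called, 2 in the fit reported, was 9 with library size alone (5 up and 4 down in 52X T4A), 29 with no filter on low counts (7 up and 22 down), 30 with DESeq2 (4 up and 26 down) and 18 with the replicate block (5 up and 13 down). It was 0 with TMM factors from miRNA genes alone (136 features at an unadjusted p below 0.05 in edgeR), 0 with factors computed without Y RNA features (165), 0 without the Y RNA copies (128 of 1258 tested) and 0 at an adjusted p below 0.01 (152), and from 4 to 218 with 1 library left out. DESeq2, with 30 called, called none of the 3 genes. Leaving out 1 library assumes that the lone library varies like the other group.

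RNY4 became called in 3 of 16 alternatives: -0.62 with no filter, -0.63 with the replicate block and -1.07 without 52X T4A replicate 1. With 1 library left out it ranged from -1.07 to -0.29. RNY1 became called in 1 of 16, at -1.09 without 52X WT replicate 2, with a range from -1.09 to -0.41. RNY3 turned to 0.070 when scaled by the upper quartile, 0.080 when scaled by library size and 0.14 without 52X WT replicate 1, with a range from -0.39 to 0.14. The cause was not tested. Adjusted p over the alternatives went from 0.000132 to 0.900 for RNY4, from 0.00661 to 0.904 for RNY1 and from 0.503 to 1.00 for RNY3. Deviations of same-numbered libraries from their group means correlated at 0.0946, so the numbers were not shown to pair the libraries. The replicate block gave RNY4 an adjusted p of 0.0372 in edgeR with 18 of 1480 features called, RNY1 -0.73 (adjusted p 0.149 in edgeR) and RNY3 -0.08 (0.988).

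With 1 library left out, the difference in the share of all counts at the 3 genes ranged from -2.11 to -0.197 percentage points, that in the share of RNY1 from -0.120 to -0.0220, that of RNY3 from 0.0206 to 0.128 and that of RNY4 from -0.106 to 0.0999. The share of RNY4, with a difference near 0, changed sign between these. Depth did not limit RNY4 or RNY1, while the number of libraries limits every comparison made here.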
